A study of Oryza sativa with 36 samples.

Results

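In rice roots, 78 transcripts were raised 2 h after zaxinone and fell short of the set limit for a rise at 6 h and 24 h, out of 33024 transcripts listed in the series. Zaxinone is a growth regulator that rice makes from carotenoids, a so-called apocarotenoid, and it was added to the nutrient solution of the plants. The 78 transcripts were chosen on the root libraries themselves, in CPM, the reads of a transcript for every 1000000 reads of its library. Their difference r, the log2 ratio of the zaxinone mean to the mock mean with 0.5 CPM added to each, had to be at least 0.8 at 2 h and under 0.4 at both 6 h and 24 h. At 2 h the lowest zaxinone library also had to lie above the highest mock library, and the zaxinone mean had to reach 2 CPM. A pair of loci was to be left out by name, and neither met the other conditions. Because these root values made the choice, the root levels of the members are given as a description and support nothing. The shoot libraries played no part in the choice, and the tests below were run on them.

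The plants were wild-type Nipponbare rice seedlings, 3 weeks old, grown hydroponically in modified Hoagland nutrient solution, and the labels mark all samples +P. They received 5 µM zaxinone or a mock treatment with the solvent acetone, and roots and shoots were collected after 2, 6 and 24 h. This gave 12 groups with 3 libraries each, 36 libraries together. The study describes them as biological replicates, and the p-values measure the spread between them. Whole roots and whole shoots were sequenced, so fewer cells of a type and less RNA per cell cannot be told apart. Library totals ranged from 11261992 to 36469854 reads. The smallest root library, replicate 2 of zaxinone at 24 h, had 11261992 reads, and the smallest shoot library, replicate 2 of zaxinone at 6 h, had 13229890. The defining markers of root and shoot could not be matched by name to the identifiers of the files, so the tissue labels were not checked in that way.

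An early, transient rise in a transcript is a common form of response to a chemical signal: the message accumulates within hours and its level then returns while the signal is still applied. In plants, genes that answer to hormones and other growth regulators are known for such courses. Identifiers are given here as locus numbers, in which the digits before the letter g name the chromosome, and refer to the first isoform where no other is named. None of the 78 identifiers was found in the reference table of gene names, and 1 member, Os02g10070, is annotated by the study. It is listed there under the citrate cycle with the reaction of citrate synthase, the enzyme that joins acetyl-CoA and oxaloacetate to citrate and so brings carbon into that cycle. The other members are described by identifier, level and pattern only.

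The study designed a primer pair for Os02g10070, a gene of chromosome 2, to measure its transcript by qRT-PCR. It reported qRT-PCR of selected sugar metabolism genes in the samples it sequenced, and those values are not used here. The primer pair is shown because this member is the only one with an annotated reaction, and because a reader could measure the transcript with it again.
Os02g10070 forward primer: gagcattggaataggatctcag
Os02g10070 reverse primer: ccttcttgcagtggttctc
The forward primer has 22 bases and the reverse primer 19, both written 5′ to 3′.

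In all, 322 transcripts met the conditions set at 2 h, and the 78 members made up 24.2% of them. Of the 322, 118 kept an r of at least 0.4 at both later times, 24 only at 6 h and 102 only at 24 h. The 24 h part of this split leans on a single library, replicate 2 of zaxinone at 24 h, the smallest root library. Without it 135 transcripts met the whole rule, 73 of them among the 78. Over all transcripts tested in roots at 24 h, edgeR called 0.00423% higher. The members were spread over all 12 chromosomes, with 13 on chromosome 5, 11 each on chromosomes 1 and 3, and 9 each on chromosomes 2 and 11. Chromosome 5 held 16.7% of the members and 8.22% of the transcripts tested in roots at 2 h, and chromosome 11 held 11.5% and 5.79%. The members came from 77 numbered loci and 1 transcript without a locus number. Of these members, 5 bore the number of an isoform other than the first. The study counted reads per annotated gene, and how reads of the other isoforms of these loci were treated was not examined.

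CPM is not corrected for transcript length, so levels are compared between samples for 1 transcript, and their range over the members only describes how many reads stood behind them. Their zaxinone means at 2 h ran from 2.12 to 633 CPM with a median of 19.7, and their mock means from 0.472 to 337 CPM with a median of 8.84. A zaxinone mean of at least 10 CPM was reached by 50 members and of at least 100 CPM by 17. The 6 highest members carried 46.0% of the summed CPM of all 78 under zaxinone at 2 h. The ratio of the zaxinone mean to the mock mean at 2 h had a median of 2.12, with quartiles of 1.93 and 2.48 and a range from 1.76 to 6.98. On the scale of r, 38 members lay between 0.8 and 1, 34 between 1 and 1.5, and 6 at 1.5 or above. The gap between the groups was often narrow: the lowest zaxinone library was 1.40 times the highest mock library at the median, from 1.07 to 2.70 times, and at least 1.5 times in 34 members. Over all transcripts tested in roots at 2 h, 6.37% were higher under zaxinone with no overlap, which the rule required of every member. The smallest read count of a member was 35 in a zaxinone library and 6 in a mock library.

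At 6 h the median r of the members was 0.11 and at 24 h it was 0.06, against 1.02 at 2 h. An r below 0 was seen in 27 members at 6 h and in 30 at 24 h. Values between 0.2 and 0.4, close under the limit, were seen in 26 members at 6 h and in 27 at 24 h. Under the stricter limit of 0.2 at both later times, 37 transcripts remained, all of them among the 78.

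**Figure D1:**
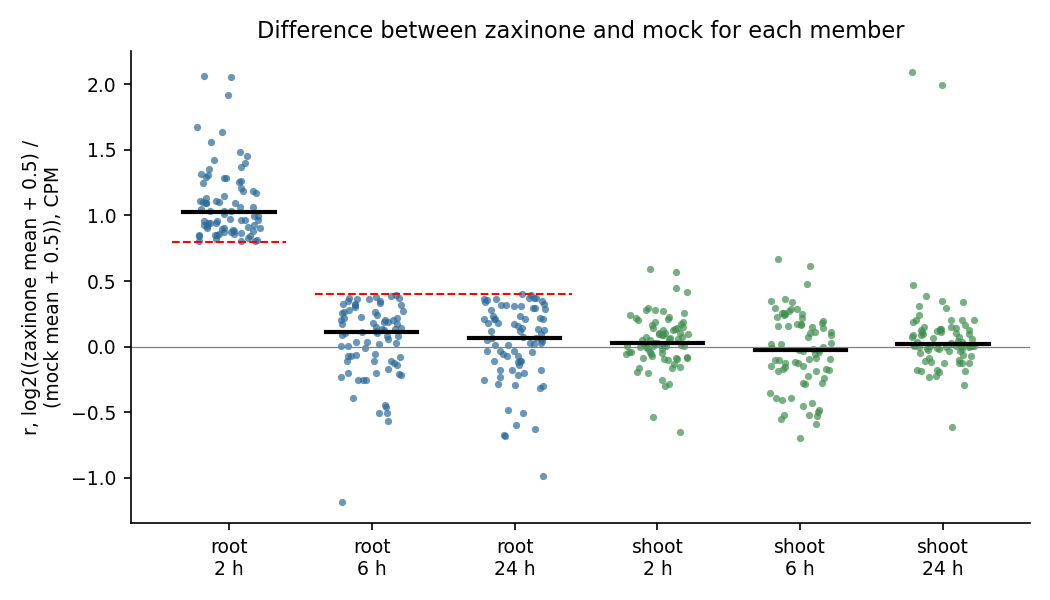
Each point is 1 of the 78 members, the vertical axis gives r (log2 ratio of the zaxinone to the mock mean, 0.5 CPM added to each), the columns are the 3 root and 3 shoot times, black bars are medians and red dashed lines the limits of the rule. The median is 1.02 in roots at 2 h, 0.11 and 0.06 in roots at 6 h and 24 h, and the shoot columns, which the rule did not use, scatter around 0.

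The summed level of the 78 members is given here for single libraries. The choice of members fixed much of its course in roots, so it is a description. In roots at 2 h the mock libraries held 2919, 2985 and 2671 CPM and the zaxinone libraries 5592, 6029 and 5986 CPM. At 6 h the sums were 3106, 3248 and 3043 CPM in mock and 3524, 3493 and 3262 CPM in zaxinone. At 24 h they were 2429.6, 2939 and 2737 CPM in mock and 2593, 2673 and 3088 CPM in zaxinone. The 2 h zaxinone libraries stood apart from all 15 other root libraries, the groups at 6 h did not overlap but lay close together, and those at 24 h overlapped. In the 18 shoot libraries the sum stayed between 1855 and 2255 CPM.

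**Figure D2:**
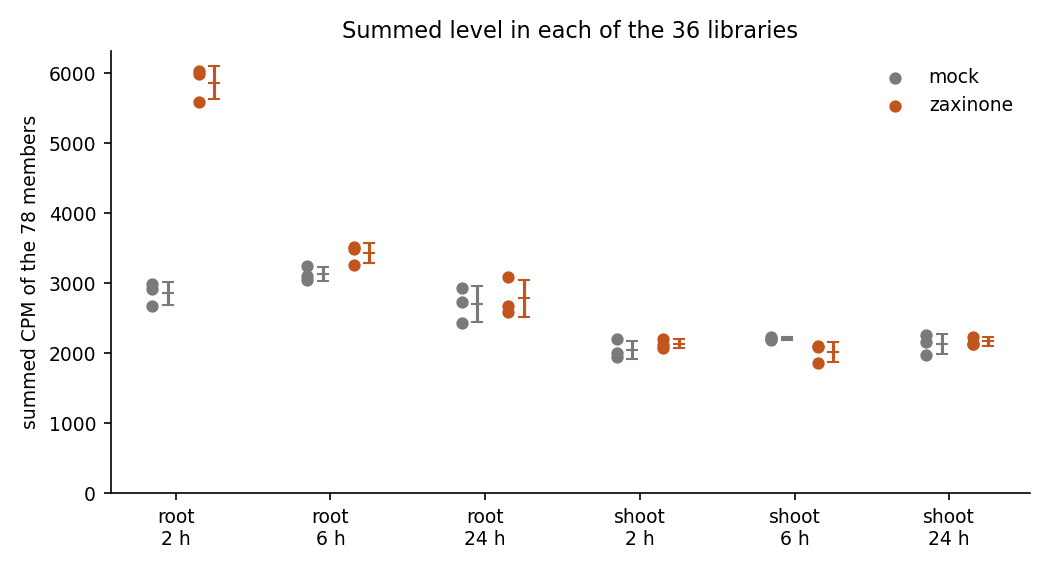
Summed CPM of the 78 members in each of the 36 libraries by tissue and time, with grey for mock and orange for zaxinone; points are libraries and the bars beside them give mean ± SD (n = 3). The 3 zaxinone root libraries at 2 h sit between 5592 and 6029 CPM, and no other library exceeds 3524 CPM.

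Os02g10070, listed with the citrate synthase reaction, showed little spread at 2 h. In roots at 2 h its mock libraries read 180.2, 193 and 191 CPM and its zaxinone libraries 388, 386 and 385 CPM, an r of 1.04. At 6 h the mock libraries read 140.3, 151 and 168 CPM and the zaxinone libraries 202, 188 and 194 CPM, an r of 0.35 with groups that still did not overlap. By edgeR it was not called there (log2 fold change 0.34 ± 0.09 SE, adjusted p = 0.0992), while DESeq2 called it (0.34 ± 0.10, adjusted p = 0.0176). At 24 h the mock libraries lay between 149.6 and 155 CPM, while the zaxinone libraries read 143, 94.4 and 189 CPM, on both sides of them. The rule kept this member by a narrow margin at 6 h, and it is lost when replicate 3 of mock at 6 h is left out.

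The study lists 6 loci under the citrate cycle, a list it drew from genes that differed at 6 h in these same samples. The list is not independent evidence, and its 6 h values were part of that choice. Os02g10070 is on it, so the study counts this gene among those that differed at 6 h. By the quasi-likelihood test of edgeR, with p-values adjusted after Benjamini and Hochberg over all transcripts (the source of every adjusted p given here as edgeR's), 1 of the 6 was called higher in roots at 2 h and 1 at 6 h, none lower. Over all transcripts tested in roots, 0.543% were called higher at 2 h and 0.8% at 6 h. The median log2 fold change of the 6 was -0.05 at 2 h and 0.40 at 6 h. Os02g10070 was the only member among them: the malate dehydrogenase locus Os10g33800 had an r of 0.01 at 2 h and 0.25 at 6 h, and the locus Os05g06460, listed with the dihydrolipoyl dehydrogenase reaction, -0.16 and 0.60. Of the wider list of 24 sugar metabolism loci, chosen likewise, 3 were called higher at 2 h and 2 at 6 h. Os02g10070 was again the only member among them. No member came from the study's 13 glucosyltransferase loci, its 7 cytokinin loci or its 15 qRT-PCR loci for checking the sequencing. The study chose the glucosyltransferase loci for a difference at 24 h, where the rule asked for an r under 0.4. Its sequencing values for the 15 qRT-PCR loci kept their direction at every time. The absence of both lists was thus largely fixed in advance.

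Of the study's 7 cytokinin loci, Os04g57720, Os02g35180 and Os01g71310 had an r of at least 0.8 at 2 h but missed the rule later. The others fell short at 2 h, with an r of -0.20 for Os06g08440, -0.32 for Os05g51390, -0.08 for Os10g33900 and 0.16 for Os03g49050. The study, which used DESeq2, reported Os04g57720 and Os02g35180 as significantly raised at 2 h, and Os01g71310 as raised at 2 h and 24 h. By edgeR, a different test, 1 of the 7 was called higher at 2 h, against 0.543% of all transcripts tested. Os04g57720, which the study calls OsRR6, a response regulator of cytokinin signalling, had an r of 1.10 at 2 h and 0.39 at 6 h but 0.92 at 24 h. Its zaxinone libraries at 24 h read 4.98, 12.1 and 5.84 CPM against 3.60, 3.82 and 4.01 CPM in mock, with replicate 2 far above the rest. Os02g35180, called OsRR10 there, showed 1.13, 0.32 and 0.87 at the successive times. Both were thus kept out by their 24 h values. The cytokinin oxidase locus Os01g71310 (OsCKX4), whose enzyme breaks cytokinins down, had 0.981, 0.494 and 0.998 and missed the rule at both later times.

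The 6 members with the largest CPM under zaxinone at 2 h were Os11g08300, Os01g47070, Os11g07830, Os03g50130, Os02g10070 and Os10g07229, and their values rest on the most reads. For Os11g08300 the mock root libraries at 2 h read 375, 326 and 309.6 CPM and the zaxinone libraries 598, 705 and 596 CPM. At 24 h the order of its means had turned, with 251, 298 and 268 CPM in mock and 226, 139 and 289.9 CPM in zaxinone, but the groups overlapped. Os01g47070 read 317, 266 and 256 CPM in mock and 547, 405 and 611 CPM in zaxinone at 2 h. Its mock root means were also lower at the later times, at 204 CPM at 6 h and 73.4 CPM at 24 h. Os03g50130 read 183, 180.1 and 222 CPM in mock and 419, 319 and 488 CPM in zaxinone at 2 h. Its groups did not overlap at the later times either: at 6 h mock read 197, 199 and 193 CPM and zaxinone 246, 249 and 268 CPM, and at 24 h mock read 115, 127 and 112 CPM and zaxinone 148, 168 and 143 CPM. It was the 1 member called higher in roots at 6 h, by a log2 fold change of 0.37 ± 0.07 (SE; edgeR adjusted p = 0.0379), and its r was 1.06 at 2 h and 0.37 at 6 h. The call at 6 h was lost with the replicate block, in a joint fit of all 18 root libraries, and without replicate 1 or 3 of mock or replicate 2 or 3 of zaxinone.

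Os11g07830 and Os11g07840 were the only members whose locus numbers lie within 50 of each other. The first had 225, 248 and 156 CPM in mock and 387, 429.9 and 526 CPM in zaxinone at 2 h. The second had 5.93, 7.55 and 3.88 CPM in mock and between 12.6 and 13.2 CPM in zaxinone. Their r was 1.09 in both, and in both the groups overlapped at 24 h. For Os10g07229 the mock libraries read 116, 124 and 119.8 CPM and the zaxinone libraries 279, 313 and 311 CPM, an r of 1.32.

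**Figure D3:**
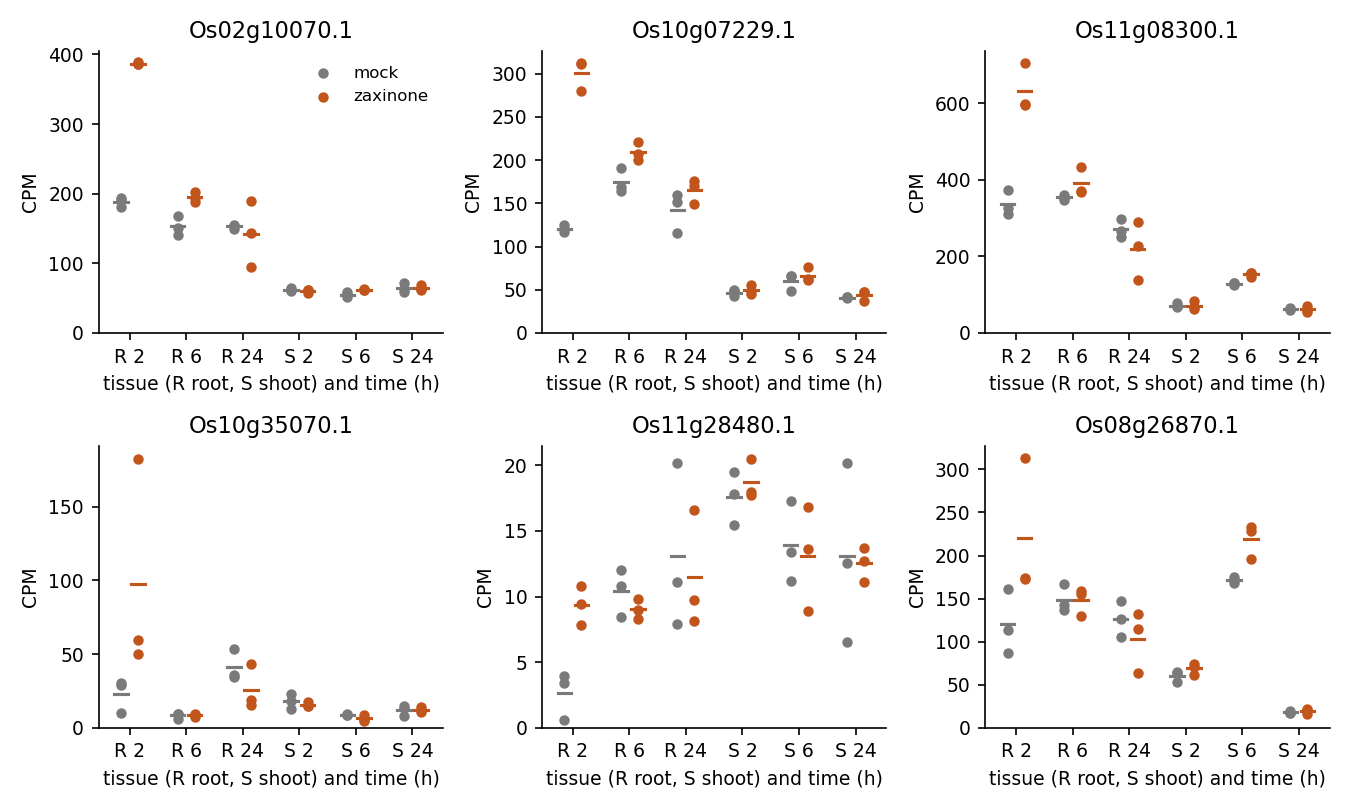
CPM of 6 members in every library, with roots (R) and shoots (S) at 2, 6 and 24 h, grey for mock and orange for zaxinone; points are libraries and bars group means (n = 3). In roots at 2 h the zaxinone points lie above the mock points in each panel, tightly for Os02g10070 (385 to 388 CPM) and widely for Os10g35070 (50.3 to 182 CPM).

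The largest differences at 2 h, among members with a zaxinone mean of at least 5 CPM, were less even. Os10g35070 had an r of 2.06, from 30.1, 29.2 and 9.92 CPM in mock and 59.6, 182 and 50.3 CPM in zaxinone. A single library, replicate 2, carried most of its zaxinone mean. At 6 h all 6 libraries of Os10g35070 lay between 6.18 and 9.57 CPM, and at 24 h the zaxinone libraries read 15.4, 43.2 and 18.7 CPM against 36.1, 53.2 and 34.7 CPM in mock. Os11g28480 followed with an r of 1.64, from 0.634, 3.40 and 3.97 CPM in mock to 9.45, 10.8 and 7.81 CPM in zaxinone. Its mock roots then read 12.1, 8.48 and 10.8 CPM at 6 h, so the level that zaxinone roots showed at 2 h was that of the mock roots 4 h later. Os05g46480 had an r of 1.48, from 4.62, 6.68 and 6.54 CPM to 15.8, 22.4 and 14.4 CPM.

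Os05g08830 read 3.50, 3.55 and 9.45 CPM in mock and 18.3, 12.2 and 15.6 CPM in zaxinone at 2 h, an r of 1.40. Its level was under 1.1 CPM in all 6 root libraries at 24 h and at or near 0 in shoots. Os01g73300 read 4.88, 6.49 and 5.65 CPM in mock and 15.0, 17.5 and 13.8 CPM in zaxinone, an r of 1.37. Os01g36590 read 16.1, 13.5 and 15.8 CPM in mock and 51.6, 31.8 and 35.3 CPM in zaxinone, an r of 1.36. It stayed just under the limit later, at 0.36 and 0.40, and its 24 h zaxinone libraries of 13.8, 2.66 and 12.0 CPM were divided by replicate 2. It lost membership in 5 of the 18 cases in which 1 root library was left out, that one among them. The other members among the 12 with the largest r, Os03g37830, Os05g46020, Os05g37950, Os04g46400 and Os10g38090, had an r from 1.26 to 1.31.

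At 6 h, 13 of the 77 members tested were higher under zaxinone with no overlap between the groups and 6 were lower, against 12.2% and 10.5% of all transcripts tested. By edgeR 1 was called higher and 0 lower, against 0.8% and 0.808%. At 24 h, 4 of 77 were higher and 2 lower with no overlap, against 9.37% and 11.4%, and edgeR called 0 in either direction, against 0.00423% and 0.0% of all. DESeq2 called 2 members higher and 3 lower at 6 h, of 72 with an adjusted p, against 2.54% and 2.77% of all. At 24 h DESeq2 called 0 members in either direction, and 350 of all 29628 transcripts higher. The rule itself held the r of every member under 0.4 at both times, so the low counts of higher calls were largely set by the choice.

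The lowest later values were also those of single libraries in part. Os05g26902 had the lowest r at both 6 h (-1.18) and 24 h (-0.99). At 2 h its zaxinone libraries read 1.14, 6.29 and 1.43 CPM against 0.783, 0.906 and 0.591 CPM in mock, and at 6 h its mock libraries read 7.92, 0.487 and 1.14 CPM. In each case 1 library made the difference, and this transcript is not a member without replicate 2 of zaxinone at 2 h. Os01g15340 was steadier: it read 22.6, 34.3 and 28.4 CPM in mock and 53.6, 45.7 and 61.9 CPM in zaxinone at 2 h, and 70.4, 62.8 and 52.1 CPM in mock and 45.3, 44.4 and 34.7 CPM in zaxinone at 6 h. The order of its groups thus turned between 2 h and 6 h with no overlap at either time. Os03g08330 showed the same turn, with 2.31, 4.72 and 3.46 CPM in mock and 5.49, 7.68 and 9.27 CPM in zaxinone at 2 h, and an r of -0.51 at 6 h. At 24 h Os11g02100 had an r of -0.68, with 0.743, 1.07 and 1.48 CPM in zaxinone and 2.95, 1.55 and 1.68 CPM in mock.

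Just inside the limit at 2 h lay Os02g26014 (r 0.802), Os05g38530 (0.81) and Os04g40070 (0.81). Just outside lay Os05g48570 (0.798), Os02g37330 (0.796) and Os12g09620 (0.79), which met every other condition. Os02g37330 read 1.23, 1.36 and 0.886 CPM in mock and 1.54, 2.59 and 3.02 CPM in zaxinone. Os04g40070 read 1.16, 1.13 and 0.760 CPM in mock and 2.45, 2.50 and 1.51 CPM in zaxinone. The limit therefore separates transcripts with like values.

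How far the list rests on single libraries was examined by applying the rule without each of the 18 root libraries in turn. The number of transcripts that met it ranged from 65 to 154. It was 154 without replicate 2 of mock at 2 h, 127 without replicate 3 of mock at 2 h and 135 without replicate 2 of zaxinone at 24 h, the smallest root library. Of the 78 members, 23 met the rule in all 18 cases and 44 met it whichever 2 h library was left out. The 23 included Os10g07229, Os11g08300, Os02g56900, Os05g37950, Os01g73300, Os11g28480, Os05g46480 and Os10g35070. Replicate 2 was the highest of the 3 zaxinone libraries at 2 h in 41 of the 78 members, against 34.8% of all transcripts tested, and it was the least deep of the 3 with 22404304 reads. Replicate 2 was likewise the highest mock library in 40 members, against 39.2% of all, and replicate 1 the lowest in 42 members, against 31.6% of all. Without replicate 1 of mock at 2 h the count stayed at 78, but only 59 of these were among the members, the smallest overlap of the 18 cases. The highest zaxinone library exceeded the next by more than 2 times in 2 members, Os10g35070 and Os05g26902.

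**Figure D4:**
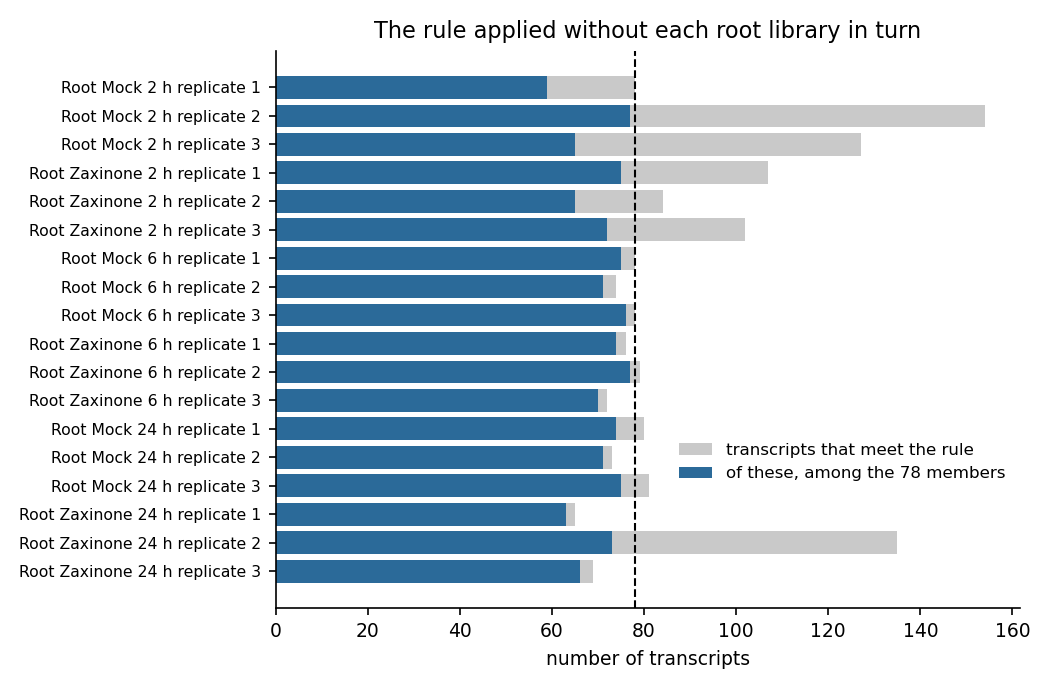
Number of transcripts that meet the rule without each root library in turn (horizontal axis; grey bars), with the part that belongs to the 78 members in blue and the full count of 78 as a dashed line. The count reaches 154 without replicate 2 of mock at 2 h and 135 without replicate 2 of zaxinone at 24 h, and the blue part falls to 59 at the lowest.

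In the edgeR fit over all 23573 transcripts tested in roots at 2 h, 0.543% were called higher, and 22 of the 78 members were among them. This contrast chose the members, so the count is a description. DESeq2 called 61 of the 78, against 1.4% of all, and edgeR with the replicate number as a block called 36, against 0.713%. The count by edgeR was 8 without replicate 1 of mock (0.245% of all), 6 without replicate 1 of zaxinone (0.288%) and 13 without replicate 3 of zaxinone (0.325%). The smallest adjusted p of a member was that of Os10g07229 (log2 fold change 1.35 ± 0.12 SE, edgeR adjusted p = 0.000866), and Os02g10070 had 1.06 ± 0.11 (edgeR adjusted p = 0.0031).

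The mock roots, which received the solvent, give the range of levels without added zaxinone. In 43 of the 78 members the lowest zaxinone library at 2 h lay above all 9 mock root libraries of the 3 times, and in 32 it lay above all 15 other root libraries. Over the transcripts tested in roots at 2 h these shares were 2.16% and 1.23%, and over the 322 that met the 2 h conditions 60.2% and 33.5%, against 55.1% and 41.0% of the members. The 32 included Os02g10070, Os10g07229, Os11g08300, Os01g47070, Os11g07830, Os11g07840 and Os03g50130. In contrast, in 19 members the mock mean at 6 h or 24 h reached or passed the zaxinone mean at 2 h, and in 3 it did so at both. The mock mean was higher at 6 h than at 2 h in 52 of the 78 members, against 55.3% of all transcripts tested at 2 h. It was higher at 24 h than at 2 h in 44, against 52.3%. The median of these mock differences was 0.21 and 0.23 on the log2 scale, against 0.05 and 0.02 over all transcripts tested at 2 h. The low mock mean at 2 h is part of what the rule selects, so this difference is a description.

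Os07g26940 is an example with a strong course in mock roots. It read 29.8, 35.7 and 41.0 CPM in mock and 54.5, 62.7 and 77.0 CPM in zaxinone at 2 h. At 6 h the mock libraries read 114, 112 and 122 CPM and the zaxinone libraries 114, 110.3 and 98.1 CPM. Both treatments were thus higher at 6 h than at 2 h: the log2 difference was 1.70 in mock and 0.73 in zaxinone, beside an r of 0.86 at 2 h. Os02g56900 took the opposite course: its mock means were 75.3, 53.8 and 120.2 CPM at 2, 6 and 24 h, with zaxinone at 145 CPM at 2 h.

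Many members had higher levels in roots than in shoots. Over the 9 mock libraries of each tissue, the log2 difference of root over shoot had a median of 0.73, against 0.40 over the transcripts tested in roots at 2 h. It exceeded 1 in 35 members (44.9%, against 25.4% of those tested) and lay under -1 in 9. In 30 members every mock root library lay above every mock shoot library, and in 8 every one lay below, against 34.3% and 13.9% of the transcripts tested in roots at 2 h. These counts are 38.5% and 10.3% of the members. Membership asked for a minimum root level, which favours root transcripts, and the comparison is a description.

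Os10g38090 had the largest excess in roots of the 78, at 109 ± 24.1 CPM in mock roots and 0.816 ± 0.304 CPM in mock shoots (SD, n = 9 libraries of 3 times). Os05g34325 was similar, at 69.2 ± 12.1 and 0.400 ± 0.279 CPM. At the other end stood Os03g37830, at 0.865 ± 1.06 CPM in mock roots and 72.6 ± 52.2 CPM in mock shoots. In roots it was near 2 CPM in mock at 2 h only (1.72, 1.93 and 2.95 CPM) and at 5.89, 8.66 and 3.98 CPM in zaxinone, while all 12 later root libraries stayed at or under 0.450 CPM. Os11g01530, named after its values were seen, had 36.5 ± 10.4 CPM in mock roots and 647 ± 128 CPM in mock shoots.

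**Figure D5:**
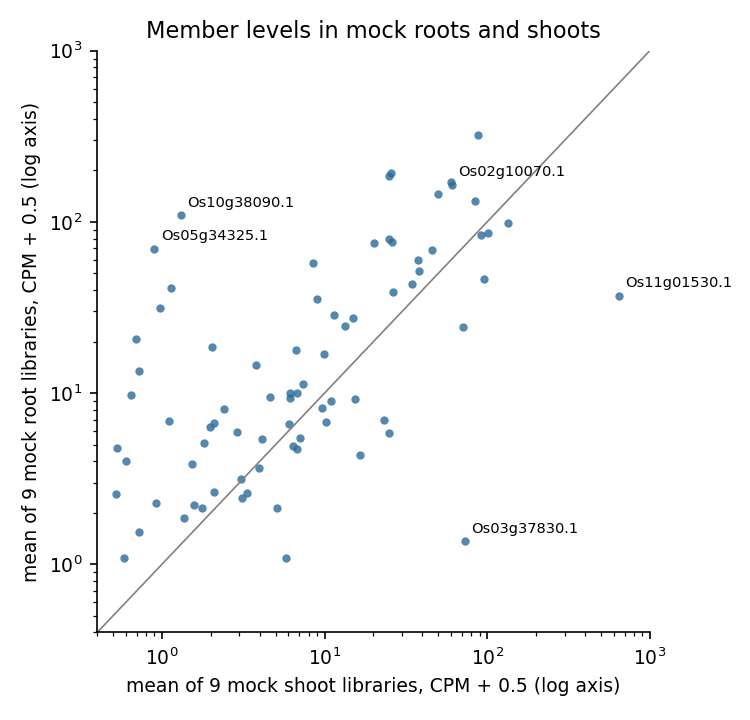
Mean level of each of the 78 members in the 9 mock shoot libraries (horizontal) and the 9 mock root libraries (vertical), in CPM with 0.5 added, on log axes; the line marks equal levels. Points above the line are higher in roots: Os10g38090 is at 109 against 0.816 CPM, and Os03g37830 at 0.865 against 72.6 CPM lies far below it.

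The shoots asked whether the members responded to zaxinone in the other organ of the same experiment, in libraries the rule had not used. In the edgeR fits of all 6 libraries of a time, no member passed the test. At 2 h, 69 members could be tested, and the other 9 were too low, with at most 1.01 CPM in any shoot library. Neither edgeR (0 of 69) nor DESeq2 (0) called any member at 2 h. Over all transcripts edgeR called 0% of 23281 and DESeq2 called 1 of 29723. At an unadjusted p under 0.05, 6 of the 69 were higher and 0 lower, against 1.85% and 2.19% of all. The median log2 fold change of the members was 0.07, from -0.79 to 1.22, and 46 of the 69 lay above 0, against 49.6% of all transcripts. The groups did not overlap in 6 members that were higher and 2 that were lower, against 3.54% and 5.83% of all.

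Os02g10070 read 61.5, 63.9 and 60.4 CPM in mock shoots and 58.0, 61.1 and 61.4 CPM in zaxinone shoots at 2 h, so the groups overlapped. Its log2 fold change there was -0.02 ± 0.07 (SE; edgeR adjusted p = 0.997), and the lowest adjusted p of any member at this time was 0.996. Os02g56900, named after its values were seen, read 91.7, 88.7 and 76.1 CPM in mock shoots and 101, 123 and 119 CPM in zaxinone shoots. Its groups did not overlap, but its log2 fold change of 0.44 ± 0.10 did not pass (edgeR adjusted p = 0.996).

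At 6 h, 67 members were tested and edgeR called 0 of them. At an unadjusted p under 0.05, 9 were higher and 11 lower, against 4.47% and 7.37% of all 23084 transcripts, of which 0.00433% were called higher after adjustment. A log2 fold change above 0 was seen in 29 of the 67, against 49.2% of all, and the groups did not overlap in 9 higher and 8 lower members, against 8.69% and 7.68%. The lowest adjusted p of a member was 0.27 by edgeR. DESeq2 gave an adjusted p to 38 members and called Os08g26870 higher (log2 fold change 0.35 ± 0.10 SE, adjusted p = 0.0382) and Os11g01530 lower (-0.56 ± 0.12, adjusted p = 0.00277), against 0.294% and 0.786% of all. Os08g26870 read 169, 175 and 172 CPM in mock shoots and 228, 196 and 233 CPM in zaxinone shoots. Os11g01530 read 774, 753 and 694 CPM in mock and 597, 515 and 400.0 CPM in zaxinone. Without replicate 2 of zaxinone at 6 h, the smallest shoot library, edgeR called 1 member higher (Os08g26870) and 5 lower (Os01g07780, Os01g37690, Os03g08790, Os10g35070 and Os11g01530) of 68 tested, against 0.363% and 2.07% of all. The part of that library's depth in the result was not tested.

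At 24 h edgeR called 0 of 69 members, and 0 of all 22786 transcripts in either direction. At an unadjusted p under 0.05, 7 members were higher and 1 lower, against 2.65% and 1.31% of all. DESeq2 called 0 members and 3 of all 29411 transcripts. With so few calls anywhere, the 0 is not particular to the members. Of the 69, 45 lay above 0, against 49.9% of all, and the groups did not overlap in 8 higher and 2 lower members, against 4.34% and 4.13%. The widest values were those of single libraries. Os05g46480 read 0.951, 1.07 and 20.8 CPM in zaxinone shoots against 1.23, 1.40 and 1.57 CPM in mock. Os05g26902 read 17.5, 2.14 and 2.92 CPM against 1.14, 2.08 and 1.31 CPM. Os11g07830 was the 1 member that was higher at an unadjusted p under 0.05 at more than 1 shoot time. Its log2 fold changes, in order of time, were 0.30, 0.26 and 0.36. Its zaxinone libraries read 36.3, 30.9 and 30.9 CPM at 2 h against 25.1, 28.3 and 27.2 CPM in mock, and 29.2, 24.4 and 28.7 CPM at 24 h against 22.1, 18.6 and 24.0 CPM. The groups did not overlap at these times, but the adjusted p did not pass.

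Mock shoots, which received the solvent, were compared between times. Between 2 h and 6 h, 9 of 67 tested members were called higher and 13 lower by edgeR, against 15.2% and 12.8% of all 23294 transcripts. Between 2 h and 24 h, 12 of 68 were called higher and 9 lower, against 14.6% and 13.2% of all 23154. These shares lie near those of all transcripts. In all, 34 members were called at 1 or both of the later times, 49.3% of those tested against 43.7% of all transcripts. Of the 9 called at both, 13.6% of those tested at both against 11.7% of all, 5 were lower at 6 h and higher at 24 h, and 3 were higher at 6 h and lower at 24 h.

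The clearest course in mock shoots was that of Os08g26870. It read 64.3, 53.6 and 64.0 CPM at 2 h, 169, 175 and 172 CPM at 6 h and 16.9, 17.4 and 19.5 CPM at 24 h. Its log2 fold change was 1.44 ± 0.09 at 6 h (SE; edgeR adjusted p = 2.76e-07) and -1.69 ± 0.10 at 24 h (edgeR adjusted p = 1.91e-06). In mock roots its libraries ranged only from 87.1 to 167 CPM over the 3 times.

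Os07g26940 and Os11g08300 were also called higher in mock shoots at 6 h. Os07g26940 read 34.2, 32.7 and 38.4 CPM at 2 h and 71.8, 78.4 and 81.4 CPM at 6 h, a log2 fold change of 1.07 ± 0.09. Os11g08300 read 67.2, 77.7 and 69.7 CPM at 2 h and 129.8, 132 and 126 CPM at 6 h, a change of 0.79 ± 0.08. Among the members called lower at 6 h, Os02g56900 read 91.7, 88.7 and 76.1 CPM at 2 h and 42.4, 41.0 and 48.8 CPM at 6 h, a change of -1.02 ± 0.09. Os05g38530 changed by -1.56 ± 0.18 and Os11g29810 by -1.52 ± 0.17.

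At 24 h Os01g37690 was higher in mock shoots, with 185, 224 and 149 CPM against 59.7, 46.3 and 54.1 CPM at 2 h, a log2 fold change of 1.87 ± 0.15. Os03g37830 rose by 1.52 ± 0.14 and the isoform Os01g62460.2 by 0.997 ± 0.08. Besides Os08g26870, Os05g46340 and the isoform Os02g21009.2 were lower at 24 h, by changes of -0.81 ± 0.11 and -0.80 ± 0.13. All 9 members called higher in mock shoots at 6 h also had a higher mock mean in roots at 6 h than at 2 h. So did 52 of the 78 members in all and 55.3% of all transcripts tested in roots at 2 h. Of the 13 called lower, 8 had a lower mock mean in roots. At 24 h the mock root mean moved in the same direction for 6 of the 12 called higher and 4 of the 9 called lower. Over all transcripts tested in roots at 2 h, 52.3% had a higher mock mean at 24 h. The share among all transcripts called in mock shoots was not computed, so these counts are a description.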

How the data were processed

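RNA-Seq was performed on roots and shoots of zaxinone-treated and mock-treated rice, with 3 libraries in each of 12 groups. The authors trimmed reads with Trimmomatic, aligned them with HISAT2 to the rice genome from Phytozome and counted them per annotated gene with HTSeq, per the submitters' processing notes and the study's methods, and deposited raw counts without normalization. The deposited columns of DESeq2 fold changes and p-values were not used. CPM was computed here from the library totals, which were 11261992 to 36469854 reads, and the rule was applied to CPM, a transcript absent from a table counting as 0. All members are listed in every table except 1 in shoots at 6 h. Zaxinone was compared with mock, and mock shoots between times, with edgeR 4.0.16 (TMM, filterByExpr, glmQLFit and glmQLFTest) in R 4.3.3, with Benjamini-Hochberg adjustment over all transcripts and a threshold of 0.05. DESeq2 1.42.0 was an alternative, beside other scaling, other filters, a replicate block, a joint fit of the 18 libraries of a tissue and each library left out in turn. The edgeR fits were also run on simulated counts. These held no deviant library, so they do not show how the fits behave with one. Replicate libraries of a group differed by more than counting noise, with a chi-square of at least 5.49 per degree of freedom over 36 pairs.

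The members, the lists and the tests were chosen with earlier results of these data known. The members named were those annotated by the study, the 12 with the largest r and at least 5 CPM, the 6 most abundant, the 3 with the lowest r at each later time, 3 on each side of the limit, up to 3 called in each direction in each shoot comparison, and neighbouring loci. Lists by product, promoters and proteins were not used here, since the identifiers could not be matched. Precision is limited by 3 libraries per group.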

Additional observations from a re-analysis of the deposited data

Results flagged for a closer look

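Some members lay higher under zaxinone than mock in roots at 2 h with no overlap, and lower with no overlap in another comparison. The difference between the 2 effects was not tested, and the 2 h value was fixed by the choice of members. Over all transcripts tested, 10.5% were lower with no overlap in roots at 6 h, 11.4% in roots at 24 h, 5.83% in shoots at 2 h, 7.68% in shoots at 6 h and 4.13% in shoots at 24 h. All values that follow are r, in log2 units.

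In roots at 6 h there were 6 such members: Os01g15340 at -0.57, Os03g08330 at -0.51, Os12g36220 at -0.51, Os01g07780 at -0.46, Os11g05400 at -0.44 and Os11g29810 at -0.39. In roots at 24 h there were 2, Os11g02100 at -0.68 and Os09g25700 at -0.63. In shoots at 2 h there were 2, Os05g25890 at -0.29 and Os03g25760 at -0.16.

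In shoots at 6 h there were 8. Os01g13610 stood at -0.70, Os11g01530 at -0.55, Os03g08790 at -0.50 and Os05g46480 at -0.45. Os11g05400 stood at -0.28, Os02g32970 at -0.28, Os01g37690 at -0.28 and Os03g50130 at -0.18. Os11g05400 was thus lower in both roots and shoots at 6 h. In shoots at 24 h there were 2, Os07g42160 at -0.18 and Os02g44500 at -0.18.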

How the results depend on the processing

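The number of transcripts that met the rule was 84 with TMM-scaled CPM, 72 with a pseudocount of 1, 64 with a zaxinone mean of at least 5 CPM and 37 with r under 0.2 at the later times, and 65 to 154 without 1 root library. The cause was not tested. In roots at 2 h edgeR called 22 members higher, against 0.543% of all transcripts, and DESeq2 called 61, against 1.4%. The replicate block gave 36, against 0.713%. The fit with no filter on low counts gave 36, and leaving out 1 library gave 6 to 23. For several alternatives the share over all transcripts was not computed, so the counts here describe the settings and not the members. In roots at 6 h the 1 called higher became 2 with DESeq2, 0 with the replicate block, 0 with all 18 libraries in one fit and 0 to 2 without 1 library, and the 0 called lower became 3 with DESeq2 and 1 with the block. In roots at 24 h, 0 to 1 were called lower without 1 library. In shoots at 6 h DESeq2 called 1 higher and 1 lower, and without 1 library 0 to 1 were called higher and 0 to 5 lower. The counts of members called in the other shoot comparisons stayed within 1.5 times under every alternative run. Of the named members, 1 turned direction with a call on either side: Os05g46480 in mock shoots, 24 h against 2 h, had a log2 fold change of -0.71, not called, and, leaving out 1 library, ran from -1.24 without replicate 2 of mock at 2 h to 1.28, called, without replicate 1. That library read 6.10 CPM against 0.372 and 0.823 CPM in the other two. Libraries with the same number were not treated as pairs, since over 24 same-numbered pairs the correlation of deviations ran from -0.186 to 0.224, 6 exceeded 0.1, and in no comparison did all. At 3 libraries per group, small differences in scarce shoot transcripts were not detectable.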
